A study of Mus musculus with 2 samples.

Results

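Macrophage genes were followed in ureters taken from mouse embryos at stage E15.5 and kept for 6 days on transwell membranes. They are 33 genes used to mark macrophages and related myeloid cells, chosen by gene name on the array from a list that covers surface receptors, complement chains, lysosomal enzymes and lineage regulators. All 33 were on the array, through 42 probes in 168 spots, and 32 of them could be tested among 22070 genes in all. The Fgfr1/2cDKO ureters carried Tbx18(cre/+) together with Fgfr1(fl/fl) and Fgfr2(fl/fl), alleles that remove both fibroblast growth factor receptors where Cre is made from the Tbx18 locus, that is in the mesenchyme around the ureteric epithelium and its descendants. Control ureters were Fgfr1(fl/?) and Fgfr2(fl/?), with no Cre allele listed, and all RNA came from the NMRI strain. Receptor loss and Cre at the Tbx18 locus therefore cannot be told apart.

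Total RNA, 150 ng per labelling, was compared on 2 Agilent arrays, and both took 1 mutant and 1 control RNA in different dyes. Mutant RNA was in Cy5 on array 1, labelled male, and in Cy3 on array 2, whose label is female, so that replicate, sex label and dye orientation cannot be told apart. The labels do not say how many embryos went into an RNA or whether replicates came from separate litters, so p-values cover no more than the spread between these samples, and this spread may be technical. Well above background were 70.3% to 78.3% of gene spots in the 4 channels. For the targeted genes, the log2 ratio of mutant over control was -0.33 ± 0.15 for Fgfr1 (mean ± SD, n = 2; limma adjusted p = 0.134) and 0.56 ± 0.02 for Fgfr2 (limma adjusted p = 0.0309). The sources used here do not name the floxed exons, so a probe may lie outside the deleted part and does not check the genotype. All 9 listed genes of ureteric mesenchyme and muscle and all 9 of the urothelium could be tested.

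Macrophages are phagocytes of the blood lineage that settle in nearly every fetal organ, where they clear dying cells and debris. Their survival depends on the receptor encoded by Csf1r, and their identity on the transcription factor PU.1, which is encoded by Spi1 and binds purine-rich sites close to the start of many myeloid genes. Resident macrophages of connective tissue commonly carry the mannose receptor Mrc1, the folate receptor Folr2 and the hyaluronan receptor Lyve1, and take part in remodelling of vessels and matrix.

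The 2 genes taken as markers, Csf1r and Mrc1, were well above background in all 4 channels, as were 40 of the 42 probes. Cd163, a scavenger receptor for haemoglobin complexes, was the exception among the genes. It was above background in 1 of 4 channels and was not tested. Mrc1, Lyve1 and Stab1 are also made by lymphatic or sinusoidal endothelium, and Pf4 and F13a1 by megakaryocytes, so single members do not mark macrophages alone. In RNA of whole ureters, fewer macrophages and less RNA per macrophage cannot be told apart.

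Of the 32 macrophage genes tested, 6 fell in the Fgfr1/2cDKO RNA at a limma adjusted p under 0.05, 0 rose and 26 did not pass. At an unadjusted limma p under 0.05 there were 17 lower and 1 higher. Such a p was common, with 4955 of all 22070 genes under 0.05 in either direction. Unadjusted counts given below for roles and lists are to be read beside that number. The 6 called genes were F13a1, Cd52, Mrc1, Fcer1g, C1qa and Cd14, with 1.48-fold to 2.41-fold less signal in mutant than in control RNA. They make up 18.8% of the members, whereas 2.03% of all 22070 genes were called lower and 1.76% were called higher. The members were chosen with earlier results of these data known, so contrasts with all genes are not independent of the data. Below 0 on both arrays were 20 members, or 62.5%, against 36% of all genes. Both mutant levels lay below both control levels for 12 members, or 37.5%, against 23.6% of all genes, and the levels of the other 20 overlapped. The median log2 ratio of the members was -0.38, which is 76.7% of control, and that of all genes was -0.02. The median member stood at percentile 4.6 of all genes ordered from the lowest ratio. All 6 genes were lower under each of 9 alternative settings, but 0 of them passed with median centring or with the processed signals of the scanner software, 1 passed in the authors' value table and 2 with separate channels.

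Levels below are log2 signals after normalisation, given for array 1 and then array 2, and ratios are log2 of mutant over control in the same order or as mean ± SD over the 2 arrays. The arrays differed in how far down the macrophage genes lay. The members' median was -0.11 on array 1 and -0.65 on array 2, where all genes had -0.03 and -0.00. Of the 32 members, 27 had a lower ratio on array 2 than on array 1 (84.4%), against 45.3% of all genes. Signal summed over all 33 members, including the untested Cd163, came to 213145 in mutant and 236496 in control RNA on array 1. That is 90.1% of control. On array 2 the sums were 136718 in mutant and 209955 in control RNA, or 65.1% of control. The control sums lay closer together than the mutant sums. The median SD of a member's ratio between arrays was 0.29, against 0.11 for all genes, while spots of the same probe on 1 array had a median SD of 0.04. Ratios ran from -1.11 to 1.21 on array 1 and from -1.42 to 0.18 on array 2, and means from -1.27 to 0.46.

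**Figure D1:**
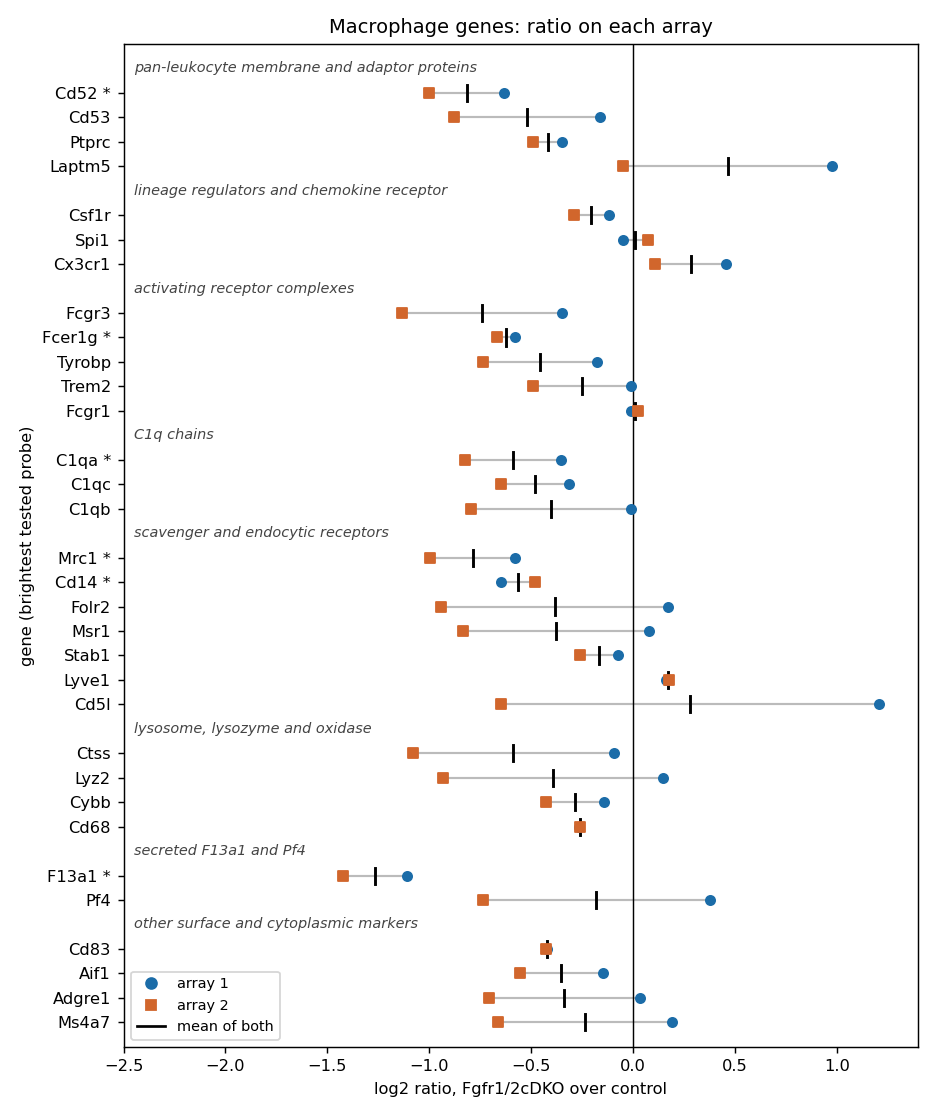
Log2 ratio of Fgfr1/2cDKO over control RNA for the 32 tested macrophage genes, grouped by role, with circles for array 1, squares for array 2, a black bar at the mean of both and an asterisk at the 6 genes with a limma adjusted p under 0.05. All 6 lie left of 0 on both arrays, and the square lies left of the circle for 27 of the 32 genes.

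The promoters of the members were read for the letters that PU.1 is known to bind, because that protein is encoded by a member of the list. RefSeq (GRCm38.p6) promoters, from 250 bases before to 50 bases after the start of transcription, matched 23 of the 33 genes through 28 promoters. The 6 letters GAGGAA, sought on both strands, stood in 18 of the 23 genes (78.3%), against 31.3% of 27025 genes with a promoter and 30.6% of the genes tested here. By promoter, 20 of 28 held them (71.4%), against 28.3% of all 32851 promoters of the same length. The 8 letters GAGGAAGT, which contain the shorter motif, stood in 5 of the 23 genes (21.7%), against 3.69% of all genes with a promoter. By promoter the longer motif was in 17.9% of those of the members and in 3.2% of all. These are counts of letters and not of bound sites.

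The 5 members with the 8 letters were C1qc, Cd53, Ctss, F13a1 and Pf4. Each is shown in 30 bases, read 5′ to 3′ on the strand that carries the motif, with the motif in capitals, so that its flanks can be compared.
C1qc: tgtgccaaaatGAGGAAGTgtctgccgtcc
Cd53: gcgagaagagtGAGGAAGTgagactgagtg
Ctss: gcatccacaatGAGGAAGTgaactttcatt
F13a1: cgagtccttttGAGGAAGTacccagaggca
Pf4: ggatacaggatGAGGAAGTgctctgcagaa
With the start of transcription counted as base 1, positions are of the first motif base met when reading along the gene. They were 15 in F13a1, 7 in Cd53, -2 in Ctss, -10 in Pf4 and -195 in C1qc. The motif lay in the sense direction in F13a1. It was antisense in the other 4, where that base is the last of the motif as printed. The log2 ratios of these 5 genes ran from -1.27 for F13a1, the 1 gene of them that was called, to -0.18 for Pf4.

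Of the 6 called genes, F13a1, Mrc1 and Fcer1g matched a promoter. They are printed here on the strand of the gene, with every GAGGAA or its reverse complement TTCCTC in capitals and the 8 letters in full where they occur, because they range from 0 to 3 matches.
F13a1, chr13:37049164-37049463, minus strand: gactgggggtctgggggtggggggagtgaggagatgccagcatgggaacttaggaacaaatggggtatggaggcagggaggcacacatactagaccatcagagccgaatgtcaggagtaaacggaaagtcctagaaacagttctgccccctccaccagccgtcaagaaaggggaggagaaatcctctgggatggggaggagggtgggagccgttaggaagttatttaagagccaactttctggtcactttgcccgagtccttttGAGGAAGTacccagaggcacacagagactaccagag
Mrc1, chr2:14229164-14229463, plus strand: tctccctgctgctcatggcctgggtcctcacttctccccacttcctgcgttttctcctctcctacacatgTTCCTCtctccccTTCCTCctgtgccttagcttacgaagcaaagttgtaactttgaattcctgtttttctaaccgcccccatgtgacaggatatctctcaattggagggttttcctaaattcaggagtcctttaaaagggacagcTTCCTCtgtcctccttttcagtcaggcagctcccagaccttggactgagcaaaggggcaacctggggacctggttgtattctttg
Fcer1g, chr1:171234300-171234599, minus strand: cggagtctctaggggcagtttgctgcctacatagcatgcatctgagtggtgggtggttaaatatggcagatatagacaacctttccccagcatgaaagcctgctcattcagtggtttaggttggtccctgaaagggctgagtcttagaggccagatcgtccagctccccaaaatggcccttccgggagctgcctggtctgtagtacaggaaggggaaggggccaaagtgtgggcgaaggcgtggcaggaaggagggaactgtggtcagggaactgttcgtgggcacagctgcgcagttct
Mrc1 held the 6 letters 3 times, all antisense, at -180, -167 and -35. The window of Fcer1g held neither motif. A second F13a1 promoter, not printed, held the 6 letters at -66 and 18.

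Among the lineage regulators and the chemokine receptor, 0 of 3 genes were called by limma, 1 was higher at an unadjusted p under 0.05, and their median log2 ratio was 0.01. Csf1r, the receptor for the growth factors Csf1 and Il34, had log2 signals of 14.31 and 13.72 in mutant RNA and of 14.43 and 14.01 in control RNA on arrays 1 and 2. Its mutant signal was the lower one on each array, but the values of the genotypes overlapped. The ratio was -0.20 ± 0.12 (SD, n = 2; limma adjusted p = 0.307), and its 3 probes had means from -0.30 to -0.12. The probe at -0.12 had 0.07 on array 1 and -0.31 on array 2. Spi1 had log2 signals of 7.25 and 7.12 in mutant RNA and of 7.30 and 7.05 in control RNA, with a ratio of 0.01 ± 0.09 (limma adjusted p = 0.963). These were the lowest signals among the tested members, and the background correction used pulls dim ratios towards 0. With an offset of 0 in that correction the ratio was 0.03. The genotypes overlapped, with 1 ratio on either side of 0. The fractalkine receptor Cx3cr1, which marks many tissue macrophages and microglia, was among the 2 members that lay above 0 on both arrays. It had log2 signals of 12.10 and 11.63 in mutant RNA and of 11.64 and 11.53 in control RNA, and a ratio of 0.28 ± 0.25 (limma adjusted p = 0.214). Its second probe overlaps the first and gave 0.27, while the remaining one gave -0.03, so the probes of Cx3cr1 disagree in sign.

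Pan-leukocyte membrane and adaptor proteins had 1 of 4 genes called lower and a median of -0.47. Cd52 encodes a short glycoprotein anchored on lymphocytes and macrophages. It had log2 signals of 11.08 and 10.70 in mutant RNA and of 11.72 and 11.70 in control RNA, with its probe on chromosome 4 at 133649505 to 133649564 (mm9, minus strand). Both mutant values lay below both control values. Cd52 fell by 0.82 ± 0.26 on the log2 scale (SD, n = 2; limma adjusted p = 0.0196), a 1.76-fold difference. The phosphatase CD45, encoded by Ptprc and found on nearly all white blood cells, had log2 signals of 9.48 and 8.94 in mutant RNA and of 9.83 and 9.43 in control RNA. The first mutant value lay above the second control value, so the groups overlapped, with a ratio of -0.42 ± 0.10 (limma adjusted p = 0.0700). The tetraspanin Cd53 had ratios of -0.16 and -0.88, with a mean of -0.52 ± 0.51 (limma adjusted p = 0.115).

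The lysosomal membrane protein gene Laptm5 had the highest mean ratio of the list. Its log2 signals were 11.19 and 10.10 in mutant RNA and 10.21 and 10.15 in control RNA. The mutant RNA of array 1 stood alone above the other 3 values, which lay close together. The mean ratio was 0.46 ± 0.73 (limma adjusted p = 0.227), and a second probe had 0.91 on array 1 and 0.05 on array 2.

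Activating receptor complexes had 1 of 5 genes called lower and a median of -0.46. Fcer1g encodes the signalling chain shared by several Fc receptors and C-type lectins. Its log2 signals were 13.52 and 12.99 in mutant RNA and 14.09 and 13.65 in control RNA, with its probe on chromosome 1 at 173159794 to 173159853 (mm9, minus strand). The mutant values lay below the control values on both arrays without overlap. Fcer1g fell by 0.62 ± 0.06 (SD, n = 2; limma adjusted p = 0.0245), or 1.54-fold. Tyrobp, the DAP12 adaptor through which Trem2 signals, had signals of 13.43 and 12.91 in mutant RNA and of 13.61 and 13.64 in control RNA. Its values did not overlap either, but the gap was narrow on array 1, and its ratio was -0.46 ± 0.40 (limma adjusted p = 0.114). Trem2, a lipid-sensing receptor, had ratios of -0.01 and -0.49 and a mean of -0.25 ± 0.34 (limma adjusted p = 0.306).

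The low-affinity IgG receptor Fcgr3 lay just outside the threshold. It had log2 signals of 11.29 and 10.50 in mutant RNA and of 11.64 and 11.63 in control RNA. The control values nearly coincided and both mutant values lay below them. The mean ratio was -0.74 ± 0.56 (limma adjusted p = 0.0528), the fourth lowest mean of the members. Fcgr1, the high-affinity IgG receptor, had 8.03 and 7.92 in mutant RNA and 8.04 and 7.89 in control RNA, a mean of 0.01 ± 0.02 (limma adjusted p = 0.977) that turned to -0.06 under median centring. Transcripts of Fc receptor genes are alike, so their probes could bind one another's RNA.

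The 3 chains of C1q, the complement component that recognises immune complexes and dying cells and is made largely by macrophages, are encoded side by side. Their probes lie on chromosome 4 between 136436578 and 136452468 (mm9, minus strand). All 3 had negative ratios on both arrays, and 1 was called. C1qa had log2 signals of 12.36 and 11.57 in mutant RNA and of 12.71 and 12.39 in control RNA, with the mutant value of array 1 just under the control value of array 2. C1qa fell by 0.59 ± 0.33 (SD, n = 2; limma adjusted p = 0.0499), or 1.50-fold, the call nearest to the threshold. C1qc had signals of 13.89 and 13.07 in mutant RNA and of 14.21 and 13.72 in control RNA, and a ratio of -0.48 ± 0.24 (limma adjusted p = 0.0646). C1qb had 12.27 and 11.32 in mutant RNA and 12.28 and 12.12 in control RNA. Its genotypes were level on array 1 and apart on array 2, with a mean ratio of -0.40 ± 0.55 (limma adjusted p = 0.208).

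Of 7 scavenger and endocytic receptors tested, 2 were called lower, and their median was -0.38. Mrc1, which takes up glycoproteins and collagen fragments, had log2 signals of 12.75 and 12.22 in mutant RNA and of 13.33 and 13.21 in control RNA, with its probe on chromosome 2 at 14253273 to 14253332 (mm9, plus strand). The control values lay close together and both mutant values lay below them. Mrc1 fell by 0.79 ± 0.30 (SD, n = 2; limma adjusted p = 0.0228), or 1.73-fold. Cd14, the co-receptor for lipopolysaccharide, had 13.55 and 13.24 in mutant RNA and 14.20 and 13.72 in control RNA, with its probe on chromosome 18 at 36884969 to 36885028 (mm9, minus strand). Among the called genes it was the only one with the larger fall on array 1. Cd14 fell by 0.56 ± 0.12 (limma adjusted p = 0.0338), or 1.48-fold.

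The other receptors of this role did not pass. Folr2 had log2 signals of 12.10 and 10.88 in mutant RNA and of 11.93 and 11.82 in control RNA, so that 1 mutant value lay above and the other below both control values. The class A scavenger receptor Msr1 had 11.68 and 11.03 in mutant RNA and 11.60 and 11.87 in control RNA, with 1 mutant value between the control values and the other below them. Their mean ratios were -0.39 ± 0.79 for Folr2 (limma adjusted p = 0.335) and -0.38 ± 0.65 for Msr1 (limma adjusted p = 0.278). Stab1, a receptor for modified lipoproteins and matrix fragments, had ratios of -0.08 and -0.26. Lyve1 was the other member above 0 on both arrays, at 0.16 and 0.18, with a mean of 0.17 ± 0.01 (limma adjusted p = 0.374). Beside it, 3 of the 6 lymphatic endothelial genes found on the array could be tested, with a median of -0.09, and Prox1, Flt4 and Reln were not. The remaining gene of that list, Ccl21a, was not analysed here. Cd5l, a secreted scavenger protein of macrophages, had the widest gap between arrays, with 9.35 and 7.85 in mutant RNA and 8.14 and 8.49 in control RNA, and ratios of 1.21 and -0.65.

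The lysosome, lysozyme and oxidase genes had 0 of 4 called by limma, 3 lower at an unadjusted p under 0.05, and a median of -0.34. Ctss, a cysteine protease of antigen processing, had log2 signals of 13.90 and 12.99 in mutant RNA and of 14.00 and 14.07 in control RNA. The genotypes were close on array 1 and far apart on array 2, with a mean ratio of -0.59 ± 0.70 (limma adjusted p = 0.137). The lysozyme gene Lyz2 had 12.90 and 11.93 in mutant RNA and 12.76 and 12.86 in control RNA, and a mean of -0.39 ± 0.76 (limma adjusted p = 0.315). Cd68, a glycoprotein of lysosomal membranes, had nearly equal ratios of -0.26 on both arrays (limma adjusted p = 0.190), although its second tested probe had 0.07 and -0.43. The catalytic subunit of the phagocyte oxidase, Cybb, had ratios of -0.14 and -0.43 (limma adjusted p = 0.194).

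F13a1 showed the lowest ratio of the list. It encodes the A subunit of coagulation factor XIII, a transglutaminase that crosslinks fibrin and matrix and is made by resident macrophages. Its log2 signals were 8.55 and 8.26 in mutant RNA and 9.66 and 9.68 in control RNA, with its probe on chromosome 13 at 36959214 to 36959273 (mm9, minus strand). The control values nearly coincided, and both mutant values lay more than 1 unit below them. F13a1 fell by 1.27 ± 0.22 (SD, n = 2; limma adjusted p = 0.00745), or 2.41-fold, and ranked 29 from the bottom of all genes tested. A second F13a1 probe was not well above background in any channel. Of its 2 promoters in the table, the printed one holds the 8 PU.1 letters, and which of them the measured RNA comes from was not tested. The platelet factor Pf4, a chemokine also made by fetal macrophages, had 14.28 and 13.68 in mutant RNA and 13.90 and 14.41 in control RNA. Its arrays went opposite ways, with a mean of -0.18 ± 0.79 (limma adjusted p = 0.669). Of 8 listed platelet and megakaryocyte genes 4 could be tested, with a median of -0.10, and Itga2b, Gp9, Gp1ba and Gp6 were not. The platelet chemokine Ppbp was called, and fell by 0.65 ± 0.31 (limma adjusted p = 0.0378), with ratios of -0.43 and -0.86. Signal of all 8 platelet and megakaryocyte genes summed to 1457 and 1443 in mutant RNA and 1539 and 1718 in control RNA. The sums include the genes not tested, and the part of these cells in the values of F13a1 and Pf4 was not tested.

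The 4 other surface and cytoplasmic markers had 0 calls by limma, 2 lower at an unadjusted p under 0.05, and a median of -0.34. Cd83, an immunoglobulin-like surface protein of activated cells, had log2 signals of 9.33 and 9.16 in mutant RNA and of 9.75 and 9.59 in control RNA. It had the same ratio, -0.42, on both arrays and no overlap between genotypes (limma adjusted p = 0.0637). The actin-bundling protein Aif1, also called IBA1, had ratios of -0.15 and -0.56 (limma adjusted p = 0.151). Adgre1, which encodes the F4/80 antigen, had 11.81 and 11.03 in mutant RNA and 11.77 and 11.74 in control RNA. Its mutant value matched the controls on array 1 and lay below them on array 2, with a mean of -0.34 ± 0.53 (limma adjusted p = 0.269), and its second probe was below 0 on both arrays. Ms4a7, a tetraspan protein of resident macrophages, had ratios of 0.19 and -0.66.

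**Figure D2:**
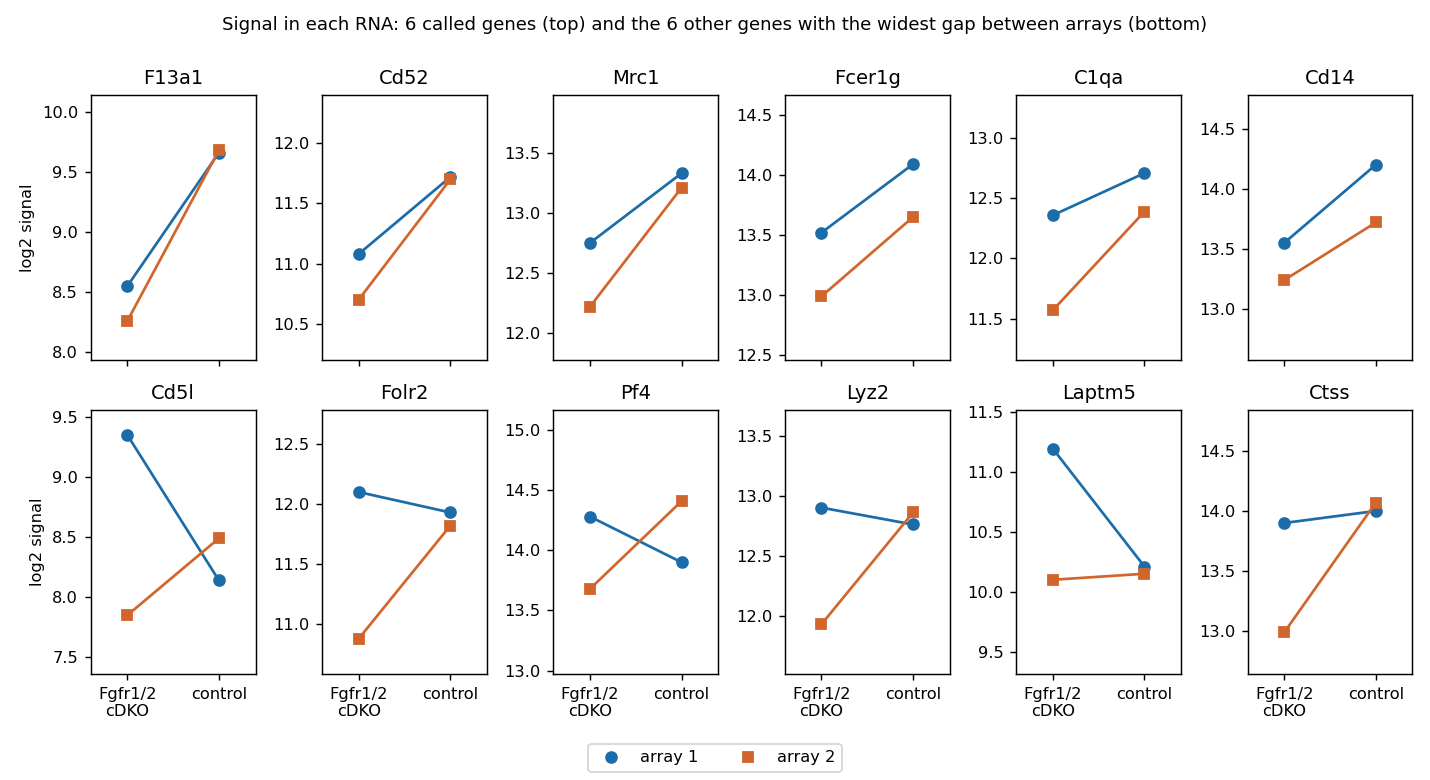
Log2 signal in mutant (left) and control (right) RNA of each array for the 6 called macrophage genes (top row) and the 6 other members with the widest gap between arrays (bottom row), with circles for array 1, squares for array 2 and a line joining the 2 RNAs of an array, each panel on its own axis of equal height. All lines of the top row rise towards control, while in the bottom row the mutant RNA of array 1 lies above control for 5 of the 6 genes.

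Opposite signs on the arrays, whose share among all genes was not counted, were seen for 10 members. Above 0 on array 1 and below 0 on array 2 were 8 of them, namely Adgre1, Cd5l, Folr2, Laptm5, Lyz2, Ms4a7, Msr1 and Pf4, while Fcgr1 and Spi1 had the reverse order within 0.1 of 0. Another 14 members were below 0 on both arrays without being called, with limma adjusted p from 0.0528 for Fcgr3 upwards. Of 6 genes with more than 1 tested probe, 5 had mean ratios of 1 sign over all their probes, the exception being Cx3cr1.

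**Figure D3:**
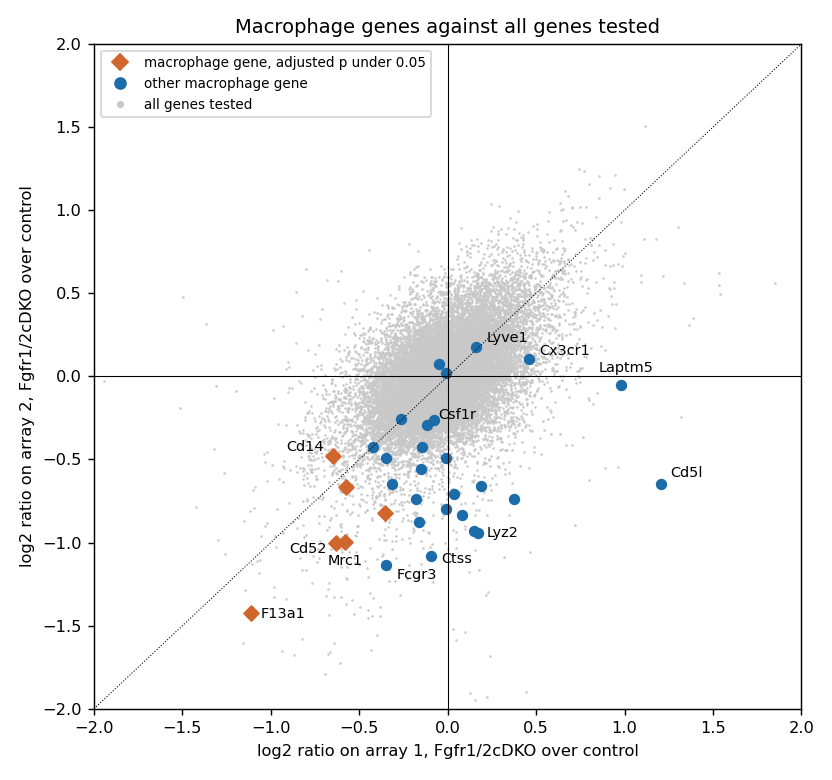
Log2 ratio of Fgfr1/2cDKO over control on array 1 (horizontal) against array 2 (vertical) for all 22070 genes tested (grey), the 6 called macrophage genes (diamonds) and the 26 others (circles), with a dotted line where both arrays are equal; axes run from -2 to 2, and 32 genes beyond them are not drawn. Of the 32 macrophage genes, 27 lie below the dotted line, and the 6 called ones lie at the lower left.

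The wider macrophage programme was read from lists of other genes. Of 44 other macrophage genes tested, 11 were called lower (25.0%), 0 higher and 33 did not pass, with a median of -0.35, or -0.16 on array 1 and -0.51 on array 2. The C-type lectin Clec4n, also called dectin-2, fell by 0.83 ± 0.33 (SD, n = 2; limma adjusted p = 0.0228). The inhibitory IgG receptor Fcgr2b, whose gene neighbours Fcgr3, fell by 0.87 ± 0.38 (limma adjusted p = 0.0228). The inhibitory receptor Cd300a fell by 0.67 ± 0.15 (limma adjusted p = 0.0229). P2ry13, a nucleotide receptor, fell by 0.63 ± 0.13 (limma adjusted p = 0.0248). The other 7 were Fcrls, P2ry12, Tlr2, Cd33, Tlr7, Tlr4 and Clec7a, named after their values were seen, with mean ratios from -0.93 to -0.53. Vsig4, Timd4, Ccr1, Abcg3 and Lilra5 were not tested.

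Growth factors, chemokines and receptors that recruit or sustain macrophages did not pass, with 0 of 11 called, 2 lower at an unadjusted p under 0.05 and a median of -0.13. The monocyte chemokine Ccl2 had ratios of -0.00 and -1.04, with a mean of -0.52 ± 0.73 (limma adjusted p = 0.189). The growth factor Csf2 had -0.28 ± 0.14, the dendritic cell growth factor Flt3l had -0.24 ± 0.10 and the shared cytokine receptor chain Csf2rb had -0.28 ± 0.32. Summed signal of this list was 241438 and 223079 in mutant RNA and 219135 and 249136 in control RNA, so the genotypes overlapped. The sum mostly follows its brightest genes, Csf3r, Cxcl12 and Ccl2, at mean log2 signals of 16.82, 15.74 and 15.05. Csf2 and Il34, at 6.95 and 7.33, hardly enter it.

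Of 13 myeloid transcription factors, 1 was called. Nr1h3, the oxysterol receptor LXR alpha, fell by 0.95 ± 0.40 (SD, n = 2; limma adjusted p = 0.0196), with ratios of -0.67 and -1.24. Which cells of the ureter its RNA came from was not tested. The list had a median of -0.10, close to that of all genes. Tfec had -0.40 ± 0.25 (limma adjusted p = 0.107) and Cebpa had -0.25 ± 0.01.

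Among 32 leukocyte signalling and cytoskeleton genes, the small GTPase Rac2 fell by 0.60 ± 0.07 (limma adjusted p = 0.0264) and the exchange factor Dock8 rose by 0.52 ± 0.07 (limma adjusted p = 0.0393). The median of the list was -0.14, and Plek and Cd48 had -0.47 ± 0.11 and -0.56 ± 0.43. Of 17 NADPH oxidase and lysosome genes, 0 were called by limma and 4 were lower at an unadjusted p under 0.05, with a median of -0.10. The cytosolic oxidase subunits Ncf1 and Ncf4, partners of Cybb, had mean ratios of -0.47 and -0.37, each below 0 on both arrays.

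Complement genes outside C1q had 3 of 15 called lower, 0 higher and a median of -0.37. The central component C3 fell by 1.13 ± 0.30 (SD, n = 2; limma adjusted p = 0.0116), with ratios of -0.91 and -1.34. The protease C1s1, which acts within the C1 complex, fell by 0.60 ± 0.06 (limma adjusted p = 0.0255) and C2 fell by 0.56 ± 0.23 (limma adjusted p = 0.0428). The C1 inhibitor Serping1 had -0.48 ± 0.31 (limma adjusted p = 0.0806). Fibroblasts and epithelia make several of these proteins too, so the list is not one of macrophages alone.

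Monocyte genes had 1 of 7 called lower, Plac8, by 0.56 ± 0.05 (limma adjusted p = 0.0319), and a median of -0.08. The monocyte chemokine receptor Ccr2 had 0.48 ± 0.21, above 0 on both arrays (limma adjusted p = 0.0600), and Lyz1 had -0.61 ± 0.56. Ccr2 was dim, at a mean log2 signal of 7.64. By limma, 1 monocyte gene was called higher with a normexp offset of 0 and with a filter on all channels. The same count was reached with the mean over probes and with a trended robust prior. Genes of MHC class II presentation had 0 of 7 called by limma, 1 lower at an unadjusted p under 0.05, and a median of 0.03, which was -0.01 under median centring and -0.03 without the filter on dim probes. Their transactivator Ciita had -0.50 ± 0.40 (limma adjusted p = 0.0906) and the invariant chain Cd74 had 0.22 ± 0.04 (limma adjusted p = 0.254).

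Genes of other cell types moved as well. Of 16 endothelial genes 8 fell, with medians of -0.50 on array 1 and -0.44 on array 2, and summed signals of 13876 and 16363 in mutant RNA and 19966 and 19720 in control RNA. Of 7 adipocyte genes 6 fell, with medians of -1.15 and -2.83, and sums of 52863 and 26510 in mutant RNA and 88264 and 73060 in control RNA. Both lists had mutant sums below all control sums, but 0 genes of either were called with processed signals or with median centring. Interferon genes, which macrophages and other cells express, had 3 of 17 called lower and medians of -0.23 on array 1 and -0.82 on array 2, lower on array 2 for 14 of 17 genes. Their sums were 49941 and 44217 in mutant RNA and 64836 and 60797 in control RNA. Urothelial genes had 3 of 9 called higher and a median of 0.45, and ureteric mesenchyme and muscle genes had 0 of 9 called by limma, 2 higher at an unadjusted p under 0.05, and a median of 0.08, which was -0.25 under median centring. The part of these shifts in the macrophage values was not tested.

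Many marker genes of other blood cells could not be tested. Of 15 neutrophil genes 10 could be tested and 2 fell, Camp and Mmp9, while Ngp, Ltf, S100a9, Retnlg and Cxcr2 were not tested. Of 10 mast cell genes 6 could be tested and 2 fell, Cpa3 and Mcpt4. At an unadjusted p under 0.05 there were 2 lower and 2 higher. Cpa3 and Mcpt4 were dim, at mean log2 signals of 7.07 and 7.13, and the filter used lets a probe pass through 1 genotype. When signal well above background was required in all 4 channels, 3 mast cell genes could be tested and 0 were called lower. Summed signals of mast cell genes were 9808 and 12059 in mutant RNA and 9574 and 9313 in control RNA. They were higher in mutant RNA on both arrays, but the brightest gene weighs most in such a sum. This was Gata2, at a mean log2 signal of 12.66, with ratios of 0.18 and 0.64. Of the 6 tested genes, 4 lay below 0 on both arrays and 2 above 0 on both, and 4 of the list were above background in no channel. Of 19 T and NK cell genes 12 could be tested, 0 were called by limma and 3 were lower at an unadjusted p under 0.05, while Cd3d, Cd3g and Cd8a were not tested and 6 of the list were above background in no channel. Of 8 B cell genes on the array 6 could be tested, with 0 called and 2 lower at an unadjusted p under 0.05. Of 7 dendritic cell genes 4, and of 11 erythroid genes 3, could be tested. In each 0 were called, with 0 and 2 lower at an unadjusted p under 0.05. These unadjusted counts stand beside 4955 of all 22070 genes at the same limma p, in either direction. Over all genes of a list, tested or not, summed signals were 3948 and 4035 in mutant RNA for neutrophil genes. In control RNA they were 4433 and 4705. The same sums were taken for T and NK cell genes. These were 5900 and 5212 in mutant RNA and 6736 and 5706 in control RNA, where the genotypes overlapped. The part of these cells in the members' values was not tested.

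**Figure D4:**
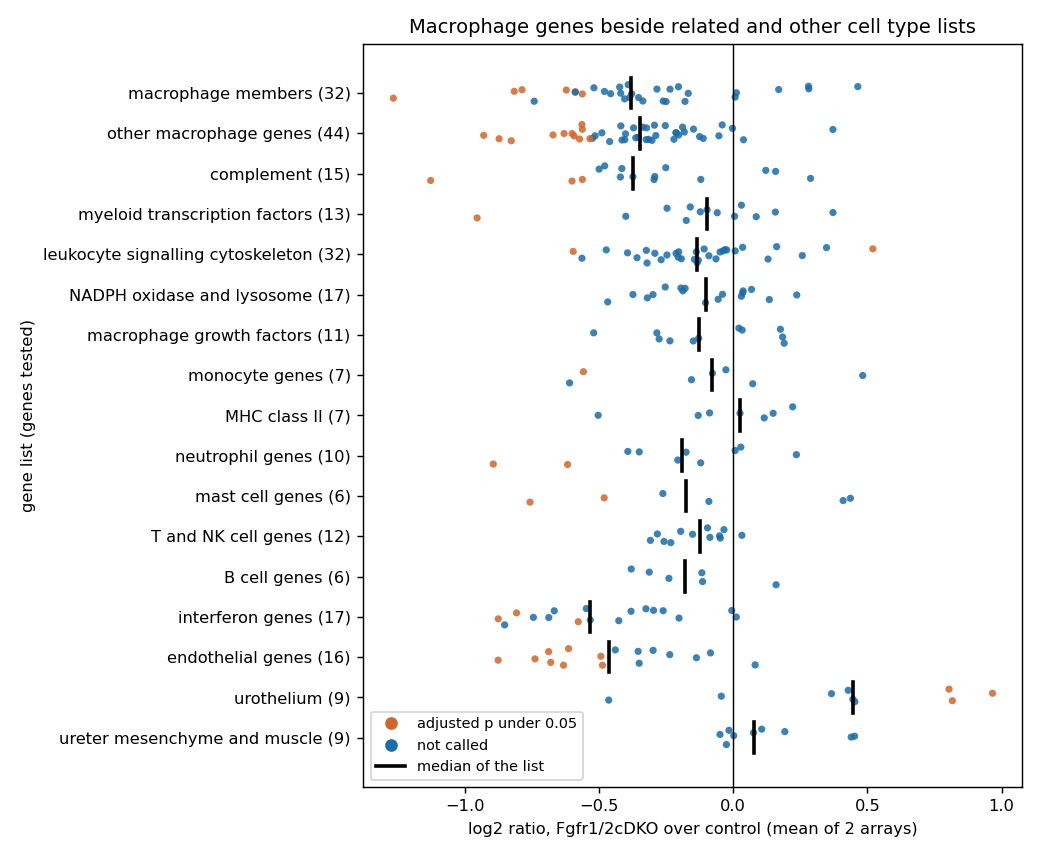
Log2 ratio of Fgfr1/2cDKO over control, mean of 2 arrays, for each tested gene of the macrophage list (top) and of lists of related and other cell types, with orange points for genes at a limma adjusted p under 0.05 and a black bar at each list's median (points are offset vertically only for legibility, and adipocyte genes, whose ratios reach further down, are not drawn). The macrophage members have a median of -0.38, other macrophage genes -0.35 and myeloid transcription factors -0.10.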

How the data were processed

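Spot and local background intensity values were deposited as read by the scanner software, which the submitters' processing notes give as Agilent Feature Extraction 10.7.3.1. The software also wrote processed intensity values and log10 ratios of red over green, per the file headers. In the value table the authors deposited a score for each probe, which reads as a signed fold change with a median of 1. Its log2 correlated across probes with the red over green ratio, at 0.84 on array 1 and -0.85 on array 2, so it runs mutant over control. No source used here gives its centring. Probe coordinates are mm9, per the file headers.

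Background correction was normexp at offset 50, a setting that pulls dim ratios towards 0, and loess was run within arrays, with limma 3.58.1 in R 4.3.3. Control and outlier spots (3.17% and 3.65% of gene spots) had weight 0, and 0 gene spots were saturated. The 4 spots of a probe were averaged. Tested probes had over 0.5 of their spots well above background in 1 or both genotypes on each of the arrays. They were 28915 of 39429 and stood for 22070 genes, each represented by its brightest probe. Names came from RefSeq through an accession for 28328 probes and a symbol for 3400, and 7701 kept the name in the file. Ratios of mutant over control were tested against 0 by lmFit and eBayes in a two-sided test, adjusted by Benjamini-Hochberg over all genes, at a threshold of 0.05. There was 1 residual degree of freedom, and the prior added 7.45. The number of arrays limits the precision. Levels per RNA came from the channels after loess and Aquantile normalisation. Summed signals cover every gene of a list that is on the array, also those not tested.

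The members and lists were chosen with earlier results of these data known. All 33 members are named, with up to 4 genes of smallest p from each list on macrophages, and counts and medians for other cell types. Some genes that this rule names are not reported here. Alternatives covered background correction, normalisation, the filter on dim probes, the choice of probe, the authors' value table, separate channels, the variance model, the threshold and each array alone.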

Additional observations from a re-analysis of the deposited data

Results flagged for a closer look

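For 10 macrophage genes the ratio lay above 0 on the array labelled male and below 0 on the array labelled female, or the reverse. The difference was not tested, since there is 1 array of each sex label and the arrays also differ in dye orientation. Taken as array 1 (male) minus array 2 (female), it was widest for Cd5l, at 1.85 on the log2 scale. Folr2 differed by 1.12, Pf4 by 1.11, Lyz2 by 1.08 and Laptm5 by 1.03. Msr1 differed by 0.92, Ms4a7 by 0.85 and Adgre1 by 0.74. The remaining genes, Spi1 at -0.13 and Fcgr1 at -0.032, had ratios near 0 on both arrays. How many of all genes tested had opposite signs was not counted.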

How the results depend on the processing

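The count of macrophage genes called lower was 6 in the setting used for the report and 5 to 8 with a normexp offset of 0, no filter on dim probes, a filter on all channels, the mean over probes or a trended robust prior, all by limma. It was 0 with the processed signals of the scanner software and 0 with median centring, where 13 and 20 members had an unadjusted p under 0.05 and the lowest adjusted p was 0.0525 and 0.121. It was 1 (F13a1) in the authors' value table, 2 (F13a1 and Cd52) with separate channels and the array as a replicate block, and 10 at an adjusted p under 0.1. Over all genes the count was 836, against 10 with processed signals, 0 with median centring, 170 in the authors' value table, 1307 with a trended robust prior, 214 with the replicate block and 1907 at an adjusted p under 0.1. At an unadjusted p under 0.05 there were 4621 genes with processed signals and 5584 with median centring. The cause of these shifts was not tested. No member was called higher in any setting. The members' median log2 ratio stayed between -0.57 and -0.38. It was -0.11 on array 1 alone and -0.65 on array 2 alone. With median centring all genes had a median of -0.14, and relative to it the members lay at -0.43. Of 9 other settings at the same threshold, F13a1 was called in 7 (adjusted p from 0.000526 to 0.121), Cd52 in 6, Cd14, Fcer1g and Mrc1 in 5 each and C1qa in 4 (0.0225 to 0.146). Among the members not called, Fcgr3 passed in 4 of the 9, with the trended robust prior, a normexp offset of 0, the filter on all channels and the mean over probes. C1qc passed with the trended robust prior and Cd83 with the mean over probes (adjusted p = 0.0490). Fcgr1, at 0.01, turned to -0.061 with median centring and -0.0042 in the authors' value table. The 11 calls among other macrophage genes ranged from 0 to 13 over the settings, with medians from -0.52 to -0.32. Calls among endothelial genes ranged from 0 to 8, with medians from -0.56 to -0.40. For adipocyte genes they ranged from 0 to 6, with medians from -2.07 to -1.78.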
